A study of Mus musculus with 2 samples.

Results

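The core genes of the circadian clock were examined in keratinocytes, the epithelial cells of skin, sorted from mouse dorsal skin. The 10 genes, Clock, Per1, Per2, Per3, Cry1, Cry2, Nr1d1, Nr1d2, Dbp and Tef, were taken by symbol, and all 10 were found among the 50559 genes of both count tables. The series holds 1 group of 2 replicate libraries from mice carrying floxed Polr2b with GFP (Polr2b.fl.fl.GFP, a modified allele of an RNA polymerase II subunit gene) and K14Cre, a Cre recombinase driven by the keratin 14 promoter, which is active in basal epidermis and follicular epithelium. Skin was collected at postnatal day 21, labelled telogen, when the hair follicle rests. It was digested with collagenase and trypsin, and live GFP-positive cells were sorted before RNA was extracted. Both libraries carry these alleles, so there is no group with unmodified Polr2b. The labels give no time of day and do not tell how many animals gave each library. Each level is thus a single point at an unknown clock time, and a test between the libraries compares only these samples.

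The clock is a feedback loop of transcription. CLOCK, or its relative NPAS2, pairs with BMAL1 (gene Arntl), and the pair binds E-box elements and activates the Per, Cry, Nr1d, Dbp and Tef genes. PER and CRY proteins return to the nucleus and repress the pair, while the nuclear receptors NR1D1 and NR1D2 (REV-ERB alpha and beta) repress Arntl through elements that the ROR receptors activate. DBP and TEF are PAR-bZIP activators that bind D-box elements in clock-controlled genes. In skin, clock genes cycle in epidermis and hair follicle, where the clock is known to time cell division and to take part in the hair cycle.

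The elements through which these genes are known to be linked were searched in the RefSeq promoter windows of 300 bases, from 250 bases before to 50 bases after a gene's start (build GRCm38.p6), on both strands. Windows were found for 9 of the 10 genes, 13 windows in all. Per2 had no window and was not searched. The E-box CACGTG was in 4 of these windows, belonging to Per1, Cry1 and Tef, and in 7.15% of all 32851 windows. Its variant CACGTT was in the windows of Cry1, Cry2 and Nr1d1, and in 4.68% of all windows. A D-box, TTATGTAA or TTACGTAA, was in the window of Per3 and in 1.06% of all windows. The ROR element TAGGTCA and the cAMP response element TGACGTCA were in none of the 13 windows, and in 2.61% and 1.79% of all windows. The 5 windows printed here hold each kind of match found. They lie at chr11:69098699-69098998 on the plus strand (Per1), chr10:85185005-85185304 on the minus strand (Cry1), chr11:98775328-98775627 on the minus strand (Nr1d1), chr15:81802423-81802722 on the plus strand (Tef) and chr4:151044616-151044915 on the minus strand (Per3). Each reads 5′ to 3′ on the gene's strand, and capitals mark the matches.
Per1: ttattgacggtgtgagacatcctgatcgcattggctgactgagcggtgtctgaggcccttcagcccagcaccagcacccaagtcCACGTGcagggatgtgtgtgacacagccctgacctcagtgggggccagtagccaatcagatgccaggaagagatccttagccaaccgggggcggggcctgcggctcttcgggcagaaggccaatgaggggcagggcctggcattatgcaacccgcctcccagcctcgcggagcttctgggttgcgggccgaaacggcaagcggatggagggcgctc
Cry1: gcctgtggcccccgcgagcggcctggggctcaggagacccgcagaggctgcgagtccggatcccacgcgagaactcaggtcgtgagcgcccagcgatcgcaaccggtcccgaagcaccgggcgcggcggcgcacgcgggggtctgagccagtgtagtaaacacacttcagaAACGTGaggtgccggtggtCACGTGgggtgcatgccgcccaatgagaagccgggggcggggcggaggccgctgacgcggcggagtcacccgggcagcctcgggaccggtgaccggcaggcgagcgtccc
Nr1d1: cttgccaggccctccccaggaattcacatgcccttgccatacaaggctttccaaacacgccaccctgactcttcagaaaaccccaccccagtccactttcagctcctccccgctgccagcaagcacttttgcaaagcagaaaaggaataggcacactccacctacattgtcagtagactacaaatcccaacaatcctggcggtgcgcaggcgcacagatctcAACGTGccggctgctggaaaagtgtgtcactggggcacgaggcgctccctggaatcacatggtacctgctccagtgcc
Tef: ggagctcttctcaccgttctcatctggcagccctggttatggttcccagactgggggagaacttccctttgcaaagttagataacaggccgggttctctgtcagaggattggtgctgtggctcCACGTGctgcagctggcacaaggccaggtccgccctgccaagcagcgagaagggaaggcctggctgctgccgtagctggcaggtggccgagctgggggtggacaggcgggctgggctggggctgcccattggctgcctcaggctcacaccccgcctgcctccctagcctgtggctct
Per3: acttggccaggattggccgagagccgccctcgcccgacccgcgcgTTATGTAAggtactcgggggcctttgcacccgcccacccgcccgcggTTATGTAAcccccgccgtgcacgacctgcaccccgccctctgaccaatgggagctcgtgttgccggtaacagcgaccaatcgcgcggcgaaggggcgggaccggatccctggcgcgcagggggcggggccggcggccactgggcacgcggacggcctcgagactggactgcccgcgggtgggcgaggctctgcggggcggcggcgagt
The E-box starts 166 bases before the start of Per1, 60 bases before that of Cry1 and 127 bases before that of Tef, whose other window holds one too. Cry1 carries the variant as well, on the reverse strand 79 bases before its start, and Nr1d1 carries it 28 bases before its start. Per3 holds a pair of D-boxes, 205 and 158 bases before its start. A match describes letters in these windows and does not show that a factor binds there.

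The libraries held 36692204 and 33489967 counts. Levels are given as CPM, a gene's count scaled to the total of its library, and, where genes are compared with each other, as TPM, which also divides by the deposited gene length. All 10 clock genes passed 1 CPM in both libraries, as did 15833 genes in all. Together the 10 genes held 0.105% of counts in each library, with summed levels of 1052 CPM in replicate 1 and 1046 CPM in replicate 2. Basal keratinocyte genes marked the labelled cell type, with Krt5 at 3997 and 6249 CPM. Markers of fibroblasts and macrophages were abundant too, with Col1a1 at 5588 and 2620 CPM and Mrc1 at 2130 and 1998 CPM, so a clock gene's level is that of the sorted mixture. In bulk RNA, fewer cells of a type and less RNA per cell cannot be told apart. Counts of Xist RNA were 112587 and 11 and those of the Y-linked gene Uty 0 and 2394, so the libraries differed in sex-linked RNA. Y-linked Ddx3y, Kdm5d and Eif2s3y had 0, 0 and 1 counts in replicate 1 and 1618, 1113 and 1378 in replicate 2. This is the pattern of female cells in replicate 1 and of male cells in replicate 2. Any other difference between the libraries coincides with this one, and the design cannot tell them apart.

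The clock genes spanned a wide range of levels. Per1 was highest at 147 ± 2.74 TPM and Per3 lowest at 3.84 ± 0.193 TPM (SD, n = 2 here and below), a 38.3-fold range. The order on TPM was Per1, Nr1d1, Cry2, Nr1d2, Clock, Tef, Cry1, Per2, Dbp and Per3. Of the 9 pairs of neighbours in this order, the 2-library ranges of 7 did not overlap, and those of Clock with Tef and of Per2 with Dbp did. In replicate 2 alone Dbp stood above Per2. The median over the 10 genes was 25.1 TPM, beside 13.0 TPM over all detected genes.

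**Figure D1:**
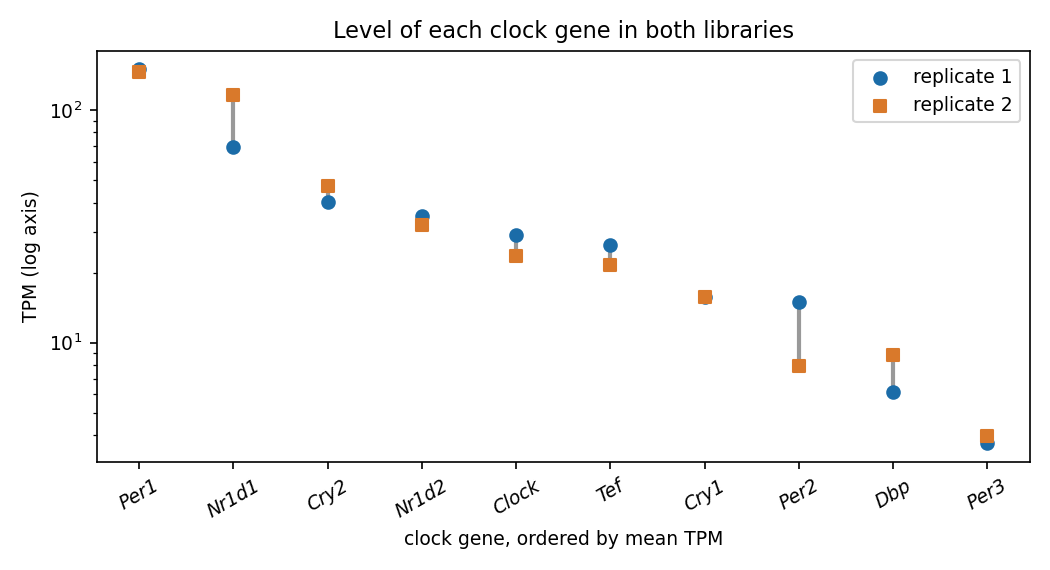
Level of each of the 10 clock genes as TPM on a log axis, ordered by mean, with a point for each library and a bar between them. Per1 lies near 147 TPM in both libraries, Nr1d1 and Per2 have long bars, and Per3 is lowest at 3.84 TPM.

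Clock, the activator of the loop, was measured at 29.0 TPM in replicate 1 and 23.6 TPM in replicate 2. This placed it at the 67.4 percentile of detected genes by mean TPM, so it was neither rare nor abundant.

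Among the repressors of the PER family, Per1 dominated. Per1, which besides its clock role is induced within minutes by many stimuli and by glucocorticoids, stood at 149 TPM in replicate 1 and 145 TPM in replicate 2, at the 94.8 percentile. Immediate early genes, which stimuli also induce within minutes, were abundant in these digested and sorted cells. The 14 listed had a median of 1289 TPM, beside 13.0 TPM over detected genes. Their relation to the level of Per1 was not tested. Per2, which scaffolds the repressor complex with CRY proteins, stood at 14.9 TPM in replicate 1 and 7.91 TPM in replicate 2. Per3, a related member with a lesser role in keeping the rhythm, stood at 3.71 and 3.98 TPM. Per1 therefore made up 88.9% of the summed PER level in replicate 1 and 92.4% in replicate 2. Per2 reached 0.0544 of the TPM of Per1 in replicate 2 (95% interval 0.0503 to 0.0589), beside 0.09996 in replicate 1 (0.0945 to 0.106). The intervals do not overlap, so the proportion of Per1 to Per2 differed between the libraries beyond counting error. Per1 over Per3 was closer, at 40.3-fold (36.8 to 44.1) and 36.5-fold (33.4 to 40.0), while Per2 over Per3 went from 4.02-fold (3.63 to 4.47) to 1.99-fold (1.77 to 2.24).

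The cryptochromes, repressors that bind the CLOCK complex directly, were led by Cry2. Cry2 stood at 40.4 TPM in replicate 1 and 47.1 TPM in replicate 2. Cry1 stood at 15.7 and 15.8 TPM. Cry2 exceeded Cry1 by 2.58-fold (2.39 to 2.78) in replicate 1 and 2.99-fold (2.77 to 3.23) in replicate 2, the same direction in both.

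Of the REV-ERB receptors, Nr1d1 was higher than Nr1d2 per length. Nr1d1 stood at 69.2 TPM in replicate 1 and 116 TPM in replicate 2, at the 91.2 percentile by mean. Nr1d2 stood at 35.1 and 32.2 TPM. The ratio of Nr1d1 to Nr1d2 was 1.97 (1.88 to 2.07) in replicate 1 and 3.61 (3.45 to 3.77) in replicate 2, so replicate 2 held more Nr1d1 relative to its partner. This ratio rests on gene length: in counts, without length, Nr1d1 was 0.757 of Nr1d2 in replicate 1 and 1.38-fold higher in replicate 2.

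Of the PAR-bZIP activators, Tef was the higher. Dbp, whose RNA swings widely over the day in many tissues, stood at 6.17 TPM in replicate 1 and 8.88 TPM in replicate 2. Tef stood at 26.3 and 21.5 TPM. Tef exceeded Dbp by 4.27-fold (3.73 to 4.90) in replicate 1 and by 2.42-fold (2.14 to 2.74) in replicate 2, and these intervals do not overlap.

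**Figure D2:**
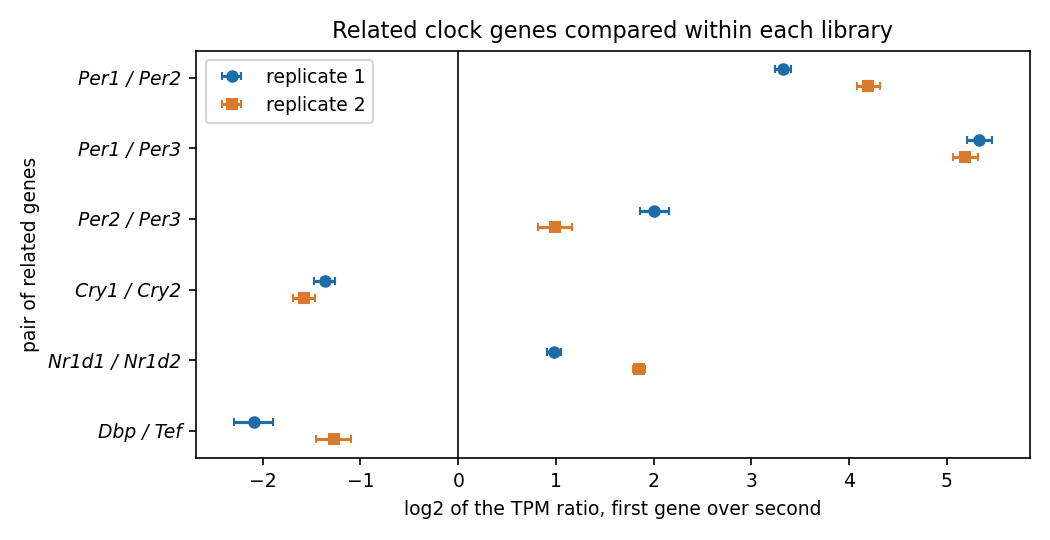
Ratio of TPM between related clock genes on a log2 axis, within each library, with exact 95% intervals that cover counting error only. Per1 lies far above Per2 and Per3, Cry1 below Cry2, Nr1d1 above Nr1d2 and Dbp below Tef in both libraries, and the intervals of the libraries are apart for Per1 over Per2, Per2 over Per3, Nr1d1 over Nr1d2 and Dbp over Tef.

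Levels per length depend on the length used. With the longest GENCODE transcript of each gene in place of the deposited length, Per1 stood at 262 TPM and Nr1d2 at 54.2 TPM, above Cry2 at 44.1 TPM, and Tef at 36.7 TPM stood above Clock at 26.5 TPM. Per1 and Nr1d1 stayed the highest and Per3 the lowest member.

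Scaled by total counts, the libraries differed most in Per2, Nr1d1 and Dbp, an order that the keratinocyte scaling described below changes. Each gene's counts were compared by an exact binomial test (two-sided) that takes the library totals as the expected ratio, adjusted by Benjamini-Hochberg over 23690 genes. This test covers counting error and compares these libraries, not conditions. Of the 10 clock genes, 3 were higher and 5 lower in replicate 2, and 2 were not called. Over all genes tested, 44.1% were called, 16.9% higher and 27.2% lower. Among the 15833 detected genes, 54.3% were called, 22.1% higher and 32.2% lower. Such calls depend on depth, and the 10 genes had a median of 70.2 CPM, beside 18.2 CPM over detected genes. No comparison at like counts was made. The median log2 difference of the 10 genes was -0.02, beside -0.05 over detected genes, and their median absolute difference was 0.26, beside 0.21.

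Per2 had 1349 counts in replicate 1 and 652 in replicate 2, which is 36.8 and 19.5 CPM. It was 1.89-fold lower in replicate 2 (1.72 to 2.08, adjusted p = 2.65e-41 by the exact binomial test), and its absolute log2 difference exceeded that of 96.3% of detected genes. Nr1d1 had 3052 and 4665 counts, or 83.2 and 139 CPM. It was 1.67-fold higher in replicate 2 (1.60 to 1.75, adjusted p = 2.30e-109 by the exact binomial test), above 93.2% of detected genes in absolute difference. Per2 and Nr1d1, both targets of CLOCK in the background model, thus lay on opposite sides. Dbp, with 231 and 303 counts, was 1.44-fold higher in replicate 2 (1.21 to 1.71, adjusted p = 0.000137 by the exact binomial test), and its interval is the widest of the 10 genes because its counts are the lowest.

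With total counts, the other 7 genes differed by less. Clock was 1.23-fold lower in replicate 2, at 119 and 96.4 CPM, and Tef 1.23-fold lower, at 74.3 and 60.4 CPM. Cry2 was 1.16-fold higher, at 67.5 and 78.6 CPM. Nr1d2 was 1.09-fold lower, at 110 and 101 CPM, and Per1 1.03-fold lower, at 516 and 502 CPM. Per1 had 18947 and 16813 counts, and at that depth a 1.03-fold difference was called (adjusted p = 0.0204 by the exact binomial test). Per3 at 13.7 and 14.7 CPM (ratio 1.07, 0.944 to 1.22) and Cry1 at 25.2 and 25.3 CPM (ratio 1.00, 0.914 to 1.10) were not called.

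**Figure D3:**
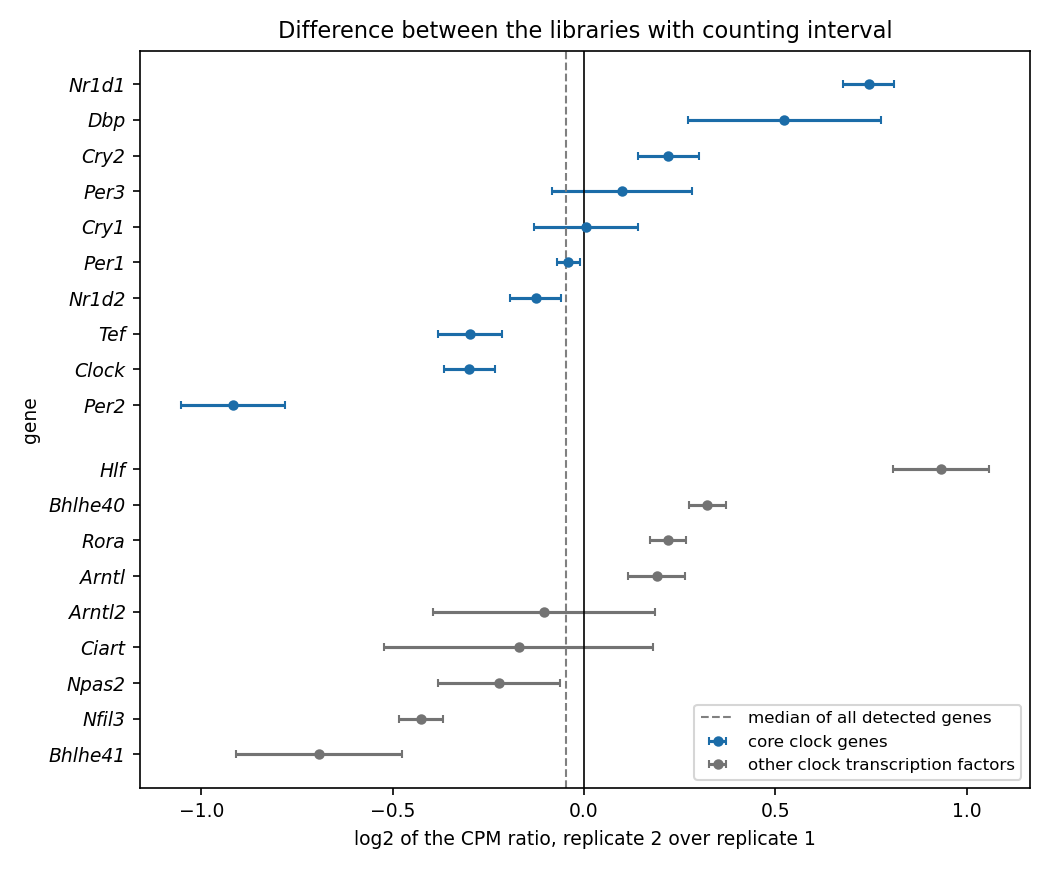
Difference between the libraries of the 10 clock genes and of 9 other clock transcription factors that passed 1 CPM in each, as log2 of the CPM ratio with exact 95% counting intervals. Nr1d1, Dbp and Hlf lie to the right and Per2, Nfil3 and Bhlhe41 to the left of the dashed line, which marks the median of all detected genes at -0.05.

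A test that includes the spread between libraries has no independent estimate of that spread here, since there is 1 library on each side. edgeR's exact test with TMM scaling and gene-wise dispersion, estimated from these same libraries, called none of the 23690 genes (0%) and so none of the 10. Xist, with 112587 and 11 counts, was not called by it either, so this outcome carries no information on the clock genes. At an unadjusted p under 0.05 in edgeR stood 351 genes, 1.48% of those tested, among them Nr1d1 of the 10. With 1 dispersion common to all genes, a coefficient of variation of 22.7%, edgeR called 21 genes higher and 45 lower. None of the 10 clock genes was among them, and none had an unadjusted p under 0.05.

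The scaling decided the direction of several genes. With TMM the log2 difference of Per1 turned from -0.04 to 0.04 and it was called higher, and Nr1d2 at -0.05 was no longer called, so that 4 genes were higher and 3 lower. DESeq2 size factors gave 4 and 3 as well. When the libraries were scaled to the summed counts of 12 basal and spinous keratinocyte genes, the median over detected genes moved from -0.05 to -0.66. Relative to that shift the clock genes kept their order, but 1 gene was then higher (Nr1d1, at 0.09) and 8 lower, and Dbp, at -0.12, was not called. Nr1d1 and Dbp were then nearest to 0, and Clock at -0.94 and Tef at -0.94 were farther from it. Per2, Clock and Tef were called lower and Nr1d1 higher under all 4 scalings. The 4 scalings are not independent checks, since TMM and DESeq2 size factors were nearly the same. With the keratinocyte scaling 17468 of the 23690 genes tested were called lower, so a lower call under it was common. Nr1d2 lay below 0 under all 4, but was not called with TMM or DESeq2 size factors. Ratios between clock genes of 1 library do not depend on scaling. Of all binomial calls, 38.3% were higher in replicate 2 with total counts, 51.5% with TMM and 1.62% with the keratinocyte scaling.

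**Figure D4:**
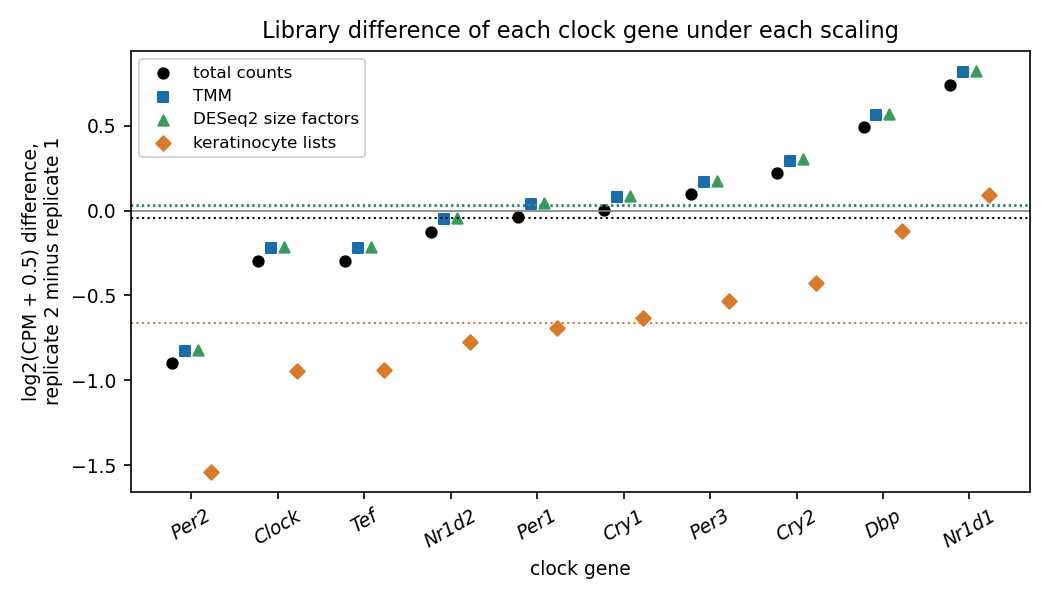
Difference of each clock gene between the libraries, on the log2(CPM + 0.5) scale, under 4 scalings, with the median of all detected genes under each as a dotted line in its colour. Nr1d1 lies above 0 and Per2, Clock, Tef and Nr1d2 below 0 under all 4, while Per1, Per3, Cry1, Cry2 and Dbp change side.

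Other genes of the loop lay on both sides as well. Arntl, the partner of Clock, had 80.0 and 91.2 CPM and was called higher. Npas2, which can stand in for CLOCK, had 20.0 and 17.1 CPM and was called lower. Arntl2, a paralog of Arntl, had 5.97 and 5.55 CPM and was not called. Of the ROR receptors reported here, Rora had 196 and 228 CPM and was called higher, and Rorb was near the floor with 22 and 2 counts and was called lower. Hlf, the third PAR-bZIP factor, had 22.0 CPM in replicate 1 and 41.9 CPM in replicate 2, 1.91-fold higher (1.75 to 2.08), on the same side as Dbp and opposite to Tef. In all, 3 of these 6 genes were called higher and 2 lower by the binomial test. Over all genes tested, 16.9% were called higher and 27.2% lower, and over detected genes 22.1% and 32.2%. With TMM and with DESeq2 size factors Npas2 was not called, and with the keratinocyte scaling Arntl at -0.46 and Rora at -0.43 turned lower while Hlf stayed higher at 0.28.

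Of the 4 other repressors, Bhlhe40, a repressor that competes for E-boxes, was the most abundant at 177 and 221 CPM and was called higher. Its paralog Bhlhe41 had 13.4 and 8.30 CPM and was called lower. Nfil3, which opposes the PAR-bZIP activators at D-boxes, had 164 and 122 CPM and was called lower, opposite to Dbp and Hlf. Ciart, a repressor of the CLOCK complex, had 4.20 and 3.73 CPM and was not called. With the keratinocyte scaling all 4 were lower, Bhlhe40 at -0.33, beside a median of -0.66 over detected genes.

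Kinases, ubiquitin ligases, corepressors and other genes that act on the clock proteins were counted as a list. Of 15 such genes, 1 was called higher and 6 lower by the binomial test and 8 were not called, beside 44.1% called over all genes tested. Their log2 differences ran from -0.37 to 0.10 with total counts. With TMM 5 were higher and 4 lower, beside 5374 higher and 5069 lower among the 23690 genes tested. With the keratinocyte scaling 14 were lower and none higher, beside 17468 lower and 288 higher among all genes tested. Their median was then -0.71, near the -0.66 over detected genes. Gsk3b, a kinase, was highest at 240 and 237 CPM, and Fbxl21, a ligase subunit for CRY proteins, lowest at 0.954 and 0.926 CPM. The median absolute log2 difference of these 15 was 0.10, beside 0.26 for the 10 core genes and 0.21 for detected genes.

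Arntl and Rora have deposited lengths of 19362 and 51763 bases, beside 3995 and 10878 bases for their longest GENCODE transcripts. Their mean levels were 11.0 and 10.1 TPM with the former and 51.5 and 46.8 TPM with the latter, so their place beside Clock at 26.3 TPM turns on the length.

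Some clock genes share exon bases with a gene on the opposite strand in GENCODE M21, and how strand was treated in the counting is unknown. Dbp shares 539 bases, 18.0% of its exons, with Sphk2, and Nr1d1 shares 263 bases, 8.55%, with Thra. Cry2 shares 4.67% and Tef 2.45% with noncoding genes, and the other 6 share none. The share of bases does not bound the share of counts, since the partners had many counts. Sphk2 had 2934 and 2869 counts in replicates 1 and 2, beside 231 and 303 for Dbp. Thra had 4958 and 4418, beside 3052 and 4665 for Nr1d1. How many counts of Dbp and Nr1d1 come from the shared bases is unknown. Thra was at 135 and 132 CPM and was not called with total counts, TMM or DESeq2 size factors. Sphk2 was at 80.0 and 85.7 CPM and was called higher with each of these, as Dbp was. Both partners were added after their values were seen, and with the keratinocyte scaling both were called lower.

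Marker genes of cell types and of proliferation differed between the libraries along with the clock genes. The 6 fibroblast genes, from Col1a1 to Lum, were all lower in replicate 2, with summed levels of 12996 and 6433 CPM. The 6 basal genes, from Krt5 to Itgb4, were all higher, summed at 9797 and 14044 CPM, and the 6 spinous genes, from Krt10 to Dsc1, at 3198 and 6345 CPM. The rise of the basal genes was uneven, with log2 differences from 0.05 for Trp63 to 0.64 for Krt5. The 8 macrophage genes, from Mrc1 to Adgre1, were summed at 7677 and 8359 CPM but were mixed. The binomial test with total counts called 4 of them higher and 2 lower, and 2 were not called. Among detected genes it called 22.1% higher and 32.2% lower. The 8 proliferation genes, from Mki67 to Birc5, were all lower, summed at 453 and 266 CPM. Endothelial, melanocyte and Schwann genes were summed at 51.0, 26.7 and 13.8 CPM in replicate 1 and at 32.8, 14.1 and 13.5 CPM in replicate 2. Of the T cell genes, Cd3e had 29 and 32 counts, Cd3d 3 and 0, and Cd3g 0 and 9. The fibroblast and proliferation genes were lower under all 4 scalings, while the basal median turned from 0.41 to -0.24 when the libraries were scaled to the keratinocyte lists that hold these genes. With that scaling the fibroblast and proliferation medians were -1.61 and -1.38, beside -0.66 over detected genes. The part of these differences, and of the difference in sex-linked RNA, in those of Per2, Nr1d1, Dbp and the other clock genes was not tested.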

How the data were processed

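Total RNA depleted of ribosomal RNA was sequenced from sorted cells of 2 replicates, per the labels' protocols. The deposited files give 1 raw count and 1 length per gene, made by the authors with featureCounts on mm39, per the submitters' processing notes. Not given in the sources used here are the aligner, the annotation release, the strand setting and how reads that map to several places were treated.

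CPM used the total of all counts. Genes with 10 or more counts in total were tested between the libraries with the exact binomial test at an adjusted p of 0.05 (scipy 1.17.1), and with edgeR 4.0.16 (exact test, TMM). DESeq2 1.42.0 gave size factors as an alternative. Quasi-likelihood could not be fitted with 1 library on each side. Log2 differences used a pseudocount of 0.5 CPM. Ratios carry Clopper-Pearson 95% intervals, which hold for counting error only: without molecular identifiers, reads are not independent molecules. Both tests were run on simulated data, the binomial test without spread between libraries and edgeR with the same spread for every gene. These settings are simpler than the real libraries, so the check does not show how the tests perform on them. Lengths and exon overlaps came from GENCODE M21 (GRCm38), promoters from RefSeq.

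All 10 genes and the other clock transcription factors of the lists were named, except 1 that is not reported here, and of the other lists the highest and lowest member or those at 0. With 2 libraries, no genes were named for a similar pattern. Members and lists were chosen with earlier results of these data known.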

Additional observations from a re-analysis of the deposited data

How the results depend on the processing

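No paired analysis was possible because the series has 1 group. With 2 libraries, leaving out 1 gives the level of the other and no test, with a median over the 10 clock genes of 22.5 to 27.6 TPM. The binomial counts of clock genes were the same without the filter and at 1 CPM, with 3 higher and 5 lower. TMM gave 3 lower clock genes and DESeq2 size factors gave 3, with median log2 differences of 0.058 and 0.065, beside -0.02. With the keratinocyte scaling, 1 clock gene was higher and 8 lower, the median was -0.66, and 288 of all genes were higher and 17468 lower, beside 3993 and 6443. The value of Per1 was 0.036 with TMM, or 0.042 with the size factors of DESeq2, and with the keratinocyte scaling Per3 was at -0.53, Cry1 at -0.63, Cry2 at -0.43 and Dbp at -0.12. In edgeR the common dispersion called 21 genes higher and 45 lower, and 0 clock genes had an unadjusted p under 0.05 with it or with total counts, beside 1. The median level was 31.0 TPM without Rn7sk and genes under 300 bases and 31.6 TPM with the longest transcript. With that length, an alternative for ratios chosen after seeing the data, the log2 ratio of Per1 over Per2 was 4.57, of Per1 over Per3 5.53 and of Cry1 over Cry2 -1.14. Without length, Nr1d1 over Nr1d2 was 0.033 and Dbp over Tef -3.15. The scaling and the length changed these values by construction. Depth limits Dbp and Per3 most.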

Other observations

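Genes that respond to glucocorticoids, hormones whose blood level follows the time of day and stress, were lower in replicate 2. All 5 of the list, which was chosen with earlier results of these data known, were called lower by the exact binomial test. Called lower were 27.2% of all genes tested and 32.2% of detected genes. The median log2 difference of the list was -0.57. The fibroblast and proliferation lists were lower as well, with medians of -0.96 and -0.75, and their part in this was not tested. Sgk1, a kinase gene, was highest at 387 and 190 CPM (replicates 1 and 2), and Fkbp5, a chaperone of the hormone's receptor, was lowest at 121 and 63.5 CPM. Per1, which glucocorticoids also induce, was at 516 and 502 CPM, and Per2 at 36.8 and 19.5 CPM.

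Immediate early genes lay on the other side. Of 14, a list also chosen with earlier results known, the binomial test called 12 higher in replicate 2 and none lower. Called higher were 16.9% of all genes tested and 22.1% of detected genes. The median log2 difference of the list was 0.28. The basal and spinous keratinocyte lists were higher as well, with medians of 0.41 and 0.74, and their part in this was not tested. Egr1 was highest at 4607 and 5226 CPM and Egr2 lowest at 165 and 218 CPM. With the keratinocyte scaling the median turned to -0.37 and all 14 were lower, while the glucocorticoid list was lower under all 4 scalings. Under the keratinocyte scaling the median over detected genes was -0.66 and that of the glucocorticoid list -1.22.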
